A study of Homo sapiens with 12 samples.

Results

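Transcripts of 10 genes were followed in A549 cells, a human lung adenocarcinoma line: the AP-1 subunit genes JUN, JUNB, JUND, FOS, FOSB, FOSL1 and FOSL2, and the immediate early genes EGR1, IER2 and IER3. They were chosen by name, with earlier results of these data known, from the 26334 genes for which reads were counted. All 10 passed the filter on low counts that left 15352 genes to be tested. The cells had been infected with a lentivirus that carried either a control hairpin (shControl) or one directed at RNF113A (shRNF113A), a spliceosome subunit and E3 ligase, and selected with puromycin at 1 µg/ml for 4 days. Both kinds of cells were left untreated or treated for 20 h, in full growth medium, with Cisplatin at 25 µg/ml, a drug that crosslinks DNA. The dose is as the labels give it, while the study gives the doses of its other experiments on these cells in µM, so its unit is uncertain. Each of these 4 conditions had 3 libraries of stranded mRNA. The labels name neither the shRNA sequence nor how many sequences were used, so an effect of depletion cannot be told apart from an effect of that shRNA, and every cell, controls included, carried a lentivirus and had been under puromycin. The methods call the replicates biological, the labels do not say that they were separate cultures, and the p-values measure the spread between these libraries.

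AP-1 is a dimer of bZIP proteins, made of a JUN protein and a FOS protein or of JUN proteins alone, that binds DNA and turns on genes of proliferation, stress and cell death. Immediate early genes are transcribed within minutes of a signal, because the factors that start them, such as SRF with ETS proteins at the CArG box and CREB or ATF proteins at the CRE, are already in the cell, and their mRNAs are short-lived. Kinases of the JNK, p38 and ERK pathways, which DNA damage and growth factors switch on, act on these factors and on the AP-1 proteins themselves.

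The libraries held 33859097 to 56071514 read pairs, of which 26220526 to 45721152 fell on 1 gene on its own strand. The control libraries numbered 2, untreated and Cisplatin-treated, stood apart: over all genes their root mean square distances from the mean of their condition were 0.403 and 0.352 on the log2 scale, against 0.096 to 0.241 in the other 10. Results whose call or direction rests on these 2 libraries are given with and without them. The targeted gene, RNF113A, lay at 20.3, 19.5 and 19.8 CPM (the count of read pairs scaled by the size of the library) in untreated control cells and at 15.3, 15.8 and 16.8 CPM in untreated depleted cells, a log2 change of −0.31 (SE 0.092, adjusted p = 0.0247). With Cisplatin it lay at 31.5, 28.9 and 27.7 CPM in control cells and at 25.8, 24.3 and 29.9 CPM in depleted cells, so these groups overlapped (log2 change −0.14, SE 0.091, adjusted p = 0.233). At the level of its mRNA the labelled depletion was therefore small. Of 5 epithelial markers KRT8 was present at 1940 to 7450 CPM, EPCAM at 3.66 to 18.4 CPM in control and 40.5 to 97.6 CPM in depleted cells, and KRT19 at 0.673 to 5.32 CPM. CDH1 lay the other way in untreated cells, at 137 to 197 CPM with the control shRNA and 91.1 to 129 CPM upon depletion. The summed epithelial markers ranged from 7170 to 12900 CPM in untreated and 3400 to 5160 CPM in Cisplatin-treated control cells, and from 12800 to 14100 CPM and 5300 to 5730 CPM in depleted cells. Of 4 leukocyte markers CD68, which is not limited to leukocytes, was at 27.9 to 74.0 CPM and the other 3 at 0 to 0.367 CPM. Of 4 fibroblast markers COL1A1 reached 34.8 CPM and COL1A2 and DCN stayed at or under 0.0764 CPM, and the 3 endothelial markers together reached 0.787 CPM. The part of these differences in the results was not tested, and in bulk RNA fewer cells of a type and less RNA per cell cannot be told apart.

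The promoters of JUN, FOS, FOSB and EGR1 are shown because these 4 genes had the largest fold changes among the members apart from FOSL1. The sequences come from RefSeq on GRCh38.p14, in which 8 of the 10 members were matched (all but FOSL1 and IER3). Each run gives the 140 bases before the start of the gene, 5′ to 3′ on the strand of the gene, at chr1:58784048-58784187 (minus strand) for JUN, chr14:75278688-75278827 (plus) for FOS, chr19:45467856-45467995 (plus) for FOSB and chr5:138465339-138465478 (plus) for EGR1. Capitals mark TGACATCA, the AP-1 and ATF sequence of JUN, TGACGT and its reverse complement ACGTCA, the core of the CRE, TATAAA, the TATA box, and the CArG box to which SRF binds.
JUN: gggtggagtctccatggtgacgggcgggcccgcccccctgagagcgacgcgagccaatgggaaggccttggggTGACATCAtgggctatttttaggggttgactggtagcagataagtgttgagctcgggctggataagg
FOS: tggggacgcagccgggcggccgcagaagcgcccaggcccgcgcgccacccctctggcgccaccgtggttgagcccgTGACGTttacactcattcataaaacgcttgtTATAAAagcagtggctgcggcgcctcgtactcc
FOSB: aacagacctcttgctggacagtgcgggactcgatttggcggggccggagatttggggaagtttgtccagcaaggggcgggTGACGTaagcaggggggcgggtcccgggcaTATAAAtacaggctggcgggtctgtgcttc
EGR1: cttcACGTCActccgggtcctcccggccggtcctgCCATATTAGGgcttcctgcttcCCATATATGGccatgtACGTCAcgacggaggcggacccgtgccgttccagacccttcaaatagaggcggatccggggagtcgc

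FOS and FOSB share a layout in these windows: TGACGT began 64 and 60 bases, and TATAAA 33 and 30 bases, before the start. In EGR1, 2 matches to the CArG box, beginning 105 and 83 bases before the start, lay between 2 copies of ACGTCA that began 136 and 67 bases before it. In JUN, TGACATCA began 67 bases before the start. Over the 250 bases before the start, TGACGT was found on either strand in 5 of the 8 members (JUND, FOS, FOSB, FOSL2 and EGR1) and in 7.1% of 35116 RefSeq promoters. TATAAA, read on the strand of the gene alone, was found in JUNB, FOS and FOSB and in 6.8% of all promoters, and TGACATCA on either strand in JUN and in 2.37% of all. The CArG box was found in EGR1 and in 1.16% of all within the same 250 bases, and bases further upstream were not searched. The consensus AP-1 site, TGACTCA or TGAGTCA on either strand, was found in 4.2% of all promoters and in 0 of the 8 members. These 5 motifs do not share letters in the windows printed. A match is a description of the letters, not of a bound site.

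Upon Cisplatin, 5 of the 10 genes rose at least 2-fold in control cells, against 9.16% of all genes tested, and 4 in depleted cells, against 11.6%. None fell by as much. The 5 became 3 with DESeq2 and 3 without the Cisplatin-treated control library numbered 2. DESeq2 gave no adjusted p for FOSB and EGR1, so its counts of members cannot include these genes. Upon depletion of RNF113A, 3 rose at least 2-fold in untreated cells (FOS, FOSB and EGR1), against 3.7% of all genes, and 3 in Cisplatin-treated cells (JUN, FOS and IER2), against 6.9%. FOSL2 was the member that moved in opposite directions, higher upon Cisplatin and lower upon depletion. All tests were edgeR's quasi-likelihood test over all 15352 genes, with adjustment by Benjamini and Hochberg, and calls required at least 2-fold together with an adjusted p below 0.05. The comparisons share libraries (each condition enters 2 of the 4), so their results are not independent.

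**Figure D1:**
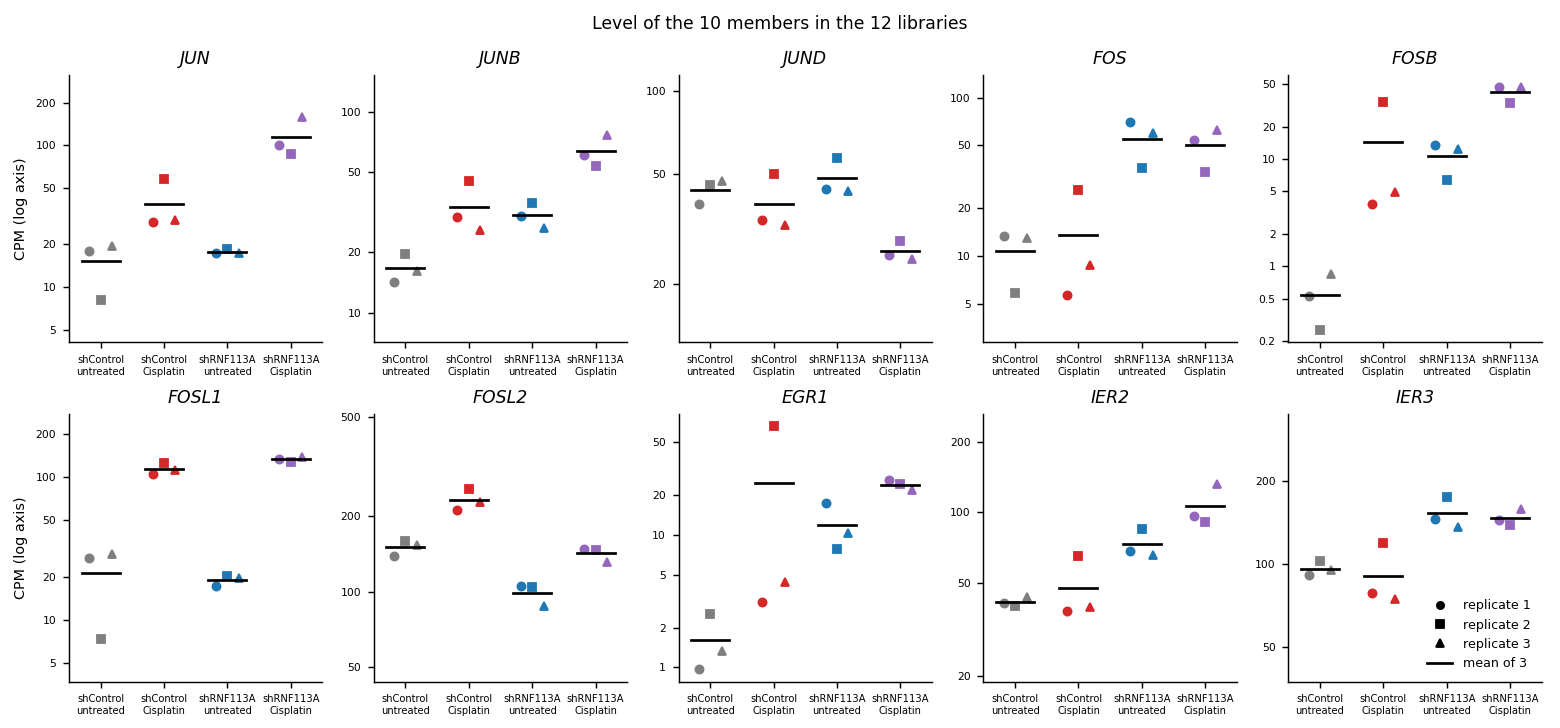
Level of each of the 10 genes in the 12 libraries. The vertical axes show CPM on a log scale that differs between panels, the horizontal axis the 4 conditions, points single libraries (circle, square and triangle for replicates 1, 2 and 3) and lines the mean of 3. FOSL1 and JUN lie higher with than without Cisplatin, FOS lies higher in both groups of depleted cells, and the Cisplatin-treated control library numbered 2 lies far above its 2 partners for EGR1 (66.2 CPM), FOSB (34.0 CPM) and FOS (26.1 CPM).

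JUN encodes the founding subunit of AP-1, whose own promoter AP-1 and ATF dimers bind. It lies on chromosome 1 (hg19, 59246465 to 59249785, minus strand) and has a single exon. JUN lay at 17.9, 8.15 and 19.5 CPM in untreated control cells and at 28.8, 57.7 and 29.6 CPM after Cisplatin. Each treated library was above each untreated one, and JUN rose 2.55-fold (log2 1.35, SE 0.34, adjusted p = 0.00468). In depleted cells it lay at 17.5, 18.4 and 17.3 CPM without and at 100.1, 87.0 and 157.5 CPM with Cisplatin, a 6.47-fold rise (log2 2.69, SE 0.35, adjusted p = 3.16e-05). Untreated cells gave no difference beyond the spread upon depletion (log2 0.23, SE 0.34, adjusted p = 0.652), whereas Cisplatin-treated depleted cells lay 2.97-fold above Cisplatin-treated control cells (log2 1.57, SE 0.33, adjusted p = 0.00276). Without both control libraries numbered 2, the rise in control cells was 0.64 on the log2 scale (adjusted p = 0.00879) and fell short of 2-fold.

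JUNB encodes a JUN protein that is a weaker activator than JUN. It lies on chromosome 19 (12902310 to 12904124, plus strand) and also has a single exon. Its levels were 14.3, 19.6 and 16.1 CPM in untreated control cells, 30.0, 45.3 and 25.8 CPM after Cisplatin, 30.5, 35.1 and 26.6 CPM upon depletion alone, and 60.9, 53.7 and 76.6 CPM upon both. JUNB thus rose upon both perturbations, with no overlap between groups in any of the 4 comparisons. Cisplatin raised it 2.02-fold in control cells (log2 1.01, SE 0.21, adjusted p = 0.00122) and 2.07-fold in depleted cells (log2 1.05, SE 0.20, adjusted p = 0.000747). Depletion raised it 1.84-fold in untreated cells (log2 0.88, SE 0.21, adjusted p = 0.00804) and 1.89-fold in Cisplatin-treated cells (log2 0.92, SE 0.20, adjusted p = 0.00356). The call in control cells lies at the limit of 2-fold: with the 6 control libraries taken as 3 pairs the log2 change was 0.99 (adjusted p = 1.64e-05), and 4 members instead of 5 were called. Without the Cisplatin-treated control library numbered 2 it was 0.75 (adjusted p = 0.00294) and without both 0.87 (adjusted p = 1.38e-04), which pass but are not called. Without both, JUNB was also called upon depletion, at 1.01 in untreated and 1.19 in Cisplatin-treated cells (adjusted p = 3.71e-05 and 3.98e-06).

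JUND encodes the JUN protein that resting cells express most evenly and that can restrain growth. It lies on chromosome 19 (18390563 to 18392432, minus strand), in a single exon. It lay at 39.1, 45.7 and 47.3 CPM in untreated control cells and at 34.1, 50.2 and 32.8 CPM after Cisplatin, groups that overlapped (log2 −0.17, SE 0.16, adjusted p = 0.383). In depleted cells it lay at 44.2, 57.5 and 43.4 CPM without and at 25.5, 28.6 and 24.6 CPM with Cisplatin. These groups were apart, and JUND fell 1.84-fold (log2 −0.88, SE 0.16, adjusted p = 0.000531). After Cisplatin it was also lower in depleted than in control cells (log2 −0.57, SE 0.16, adjusted p = 0.0141). JUND was the only JUN gene that passed the test in the lower direction. Without both control libraries numbered 2 it also fell upon Cisplatin in control cells (log2 −0.37, adjusted p = 0.0197).

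FOS encodes the FOS protein whose short-lived mRNA is the best-known mark of an immediate early response. The gene is on chromosome 14 (75745477 to 75748933, plus strand). In untreated cells it lay at 13.3, 5.81 and 13.0 CPM with the control shRNA and at 70.2, 35.9 and 59.9 CPM upon depletion. The lowest depleted library was thus above the highest control library, and FOS rose 5.18-fold (log2 2.37, SE 0.51, adjusted p = 0.00478). With Cisplatin the levels were 5.71, 26.1 and 8.79 CPM in control and 53.8, 33.9 and 63.0 CPM in depleted cells, a 3.71-fold rise upon depletion (log2 1.89, SE 0.50, adjusted p = 0.00926). Cisplatin itself gave no difference beyond the spread in control cells (log2 0.34, SE 0.50, adjusted p = 0.582) or in depleted cells (log2 −0.14, SE 0.47, adjusted p = 0.815). In control cells the direction turned on the libraries numbered 2: without both, FOS fell upon Cisplatin (log2 −0.85, adjusted p = 0.0269), while the rise upon depletion was 2.07 in untreated and 2.77 in Cisplatin-treated cells (adjusted p = 1.53e-05 and 1.25e-06).

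FOSB encodes a close relative of FOS. On chromosome 19 its gene (45971253 to 45978437, plus strand) overlaps ERCC1 on the opposite strand, and at most 5% of its reads were on that strand. In untreated control cells FOSB was close to absent, at 0.525, 0.255 and 0.848 CPM, which are 19, 10 and 32 read pairs. After Cisplatin the control libraries lay at 3.79, 34.0 and 4.89 CPM, and in depleted cells the levels were 13.4, 6.35 and 12.3 CPM without and 46.6, 32.8 and 46.9 CPM with Cisplatin. The groups were apart in each comparison except that of the Cisplatin-treated cells, where the control library numbered 2 reached the depleted ones. Cisplatin raised FOSB 26.2-fold in control cells (log2 4.71, SE 0.87, adjusted p = 0.000579) and 3.93-fold in depleted cells (log2 1.98, SE 0.66, adjusted p = 0.0204). Depletion raised it 19.7-fold in untreated cells (log2 4.30, SE 0.87, adjusted p = 0.00346) and gave a log2 difference of 1.56 in Cisplatin-treated cells that did not pass (SE 0.64, adjusted p = 0.0681). Without both control libraries numbered 2 the change upon Cisplatin in control cells was 2.66 (adjusted p = 4.38e-05), and the difference upon depletion in Cisplatin-treated cells was 3.26 and passed (adjusted p = 9.32e-08).

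FOSL1 encodes FRA1, a FOS protein without the transactivation domain of FOS that is abundant in many carcinomas. The gene is on chromosome 11 (65659520 to 65668044, minus strand). It lay at 26.9, 7.36 and 29.0 CPM in untreated and at 104.6, 125.3 and 111.8 CPM in Cisplatin-treated control cells. In depleted cells it lay at 17.2, 20.1 and 19.6 CPM without and at 133.8, 127.1 and 137.7 CPM with Cisplatin. Every treated library was above every untreated one, and in depleted cells FOSL1 rose 7.0-fold (log2 2.81, SE 0.35, adjusted p = 2.54e-05), while in control cells it rose 5.41-fold (log2 2.44, SE 0.35, adjusted p = 8.55e-05). Upon depletion the log2 differences were −0.15 in untreated cells (SE 0.34, adjusted p = 0.776) and 0.22 in Cisplatin-treated cells (SE 0.33, adjusted p = 0.605), although in the latter the 2 groups did not overlap. Both differences passed without the control libraries numbered 2, at −0.56 and 0.29 (adjusted p = 4.55e-05 and 0.0035). The untreated control library numbered 2 lay at 0.264 times the mean of its partners.

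FOSL2 encodes FRA2, the other FOS protein without that domain. It lies on chromosome 2 (28615315 to 28640179, plus strand), across from FOSL2-AS1, and overlaps ENSG00000270640 on its own strand. The part of ENSG00000270640 in the exonic and intronic reads of FOSL2 was not tested. It lay at 139, 159.9 and 154 CPM in untreated and 213, 258 and 229 CPM in Cisplatin-treated control cells, and at 106, 104 and 87.3 CPM in untreated and 149, 146 and 132 CPM in Cisplatin-treated depleted cells. None of these groups overlapped in any comparison, and the changes were small next to those of FOSL1. Cisplatin raised FOSL2 1.54-fold in control cells (log2 0.63, SE 0.098, adjusted p = 0.000166) and 1.44-fold in depleted cells (log2 0.52, SE 0.098, adjusted p = 0.000577). Depletion lowered it 1.52-fold in untreated cells (log2 −0.61, SE 0.098, adjusted p = 0.00083) and 1.64-fold in Cisplatin-treated cells (log2 −0.71, SE 0.098, adjusted p = 0.000188). FOSL2 passed in all 4 comparisons, as JUNB did.

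EGR1 encodes a zinc finger factor induced by ERK signalling through SRF. Its position is chromosome 5 (137801179 to 137805004, plus strand). It lay at 0.967, 2.52 and 1.33 CPM in untreated control cells and at 3.13, 66.2 and 4.43 CPM after Cisplatin. A single library thus carried most of the mean, and it stood 17.5 times above the mean of its partners. In depleted cells EGR1 lay at 17.5, 7.85 and 10.3 CPM without and at 26.0, 24.0 and 21.7 CPM with Cisplatin, so every depleted library was above every untreated control library. Cisplatin raised EGR1 15.2-fold in control cells (log2 3.93, SE 1.00, adjusted p = 0.00516), and without the Cisplatin-treated control library numbered 2 the log2 change was 1.23 (adjusted p = 0.0173). In depleted cells the groups did not overlap, yet the log2 change of 1.01 did not pass (SE 0.85, adjusted p = 0.325). Depletion raised EGR1 7.36-fold in untreated cells (log2 2.88, SE 0.99, adjusted p = 0.0473), a call near its limit that was lost when any one of 9 libraries was left out. In Cisplatin-treated cells depletion gave a log2 difference of −0.04 with all libraries (SE 0.83, adjusted p = 0.973) and of 2.61 without the Cisplatin-treated control library numbered 2 (adjusted p = 0.000308). With both control libraries numbered 2 left out, EGR1 passed in all 4 comparisons, at log2 changes of 1.73 and 1.00 upon Cisplatin (control and depleted cells) and 3.37 and 2.65 upon depletion (untreated and Cisplatin-treated cells).

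IER2 encodes a nuclear protein of the immediate early response, on chromosome 19 (13261229 to 13265722, plus strand). It lay at 41.0, 39.9 and 43.7 CPM in untreated control cells and at 37.9, 64.9 and 39.5 CPM after Cisplatin, groups that overlapped (log2 0.19, SE 0.20, adjusted p = 0.433). In depleted cells it lay at 68.6, 84.9 and 66.0 CPM without and at 96.4, 90.9 and 131.9 CPM with Cisplatin. IER2 rose upon depletion in both states, 1.76-fold in untreated cells (log2 0.82, SE 0.20, adjusted p = 0.00945) and 2.24-fold in Cisplatin-treated cells (log2 1.16, SE 0.20, adjusted p = 0.000716). In depleted cells it also rose 1.45-fold upon Cisplatin (log2 0.54, SE 0.20, adjusted p = 0.0308), a result that was lost when any one of 4 libraries was left out.

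IER3 encodes a stress protein that acts on survival and ERK signalling, on chromosome 6 (30710976 to 30712331, minus strand). It lay at 91.3, 102.5 and 94.7 CPM in untreated and 78.3, 119.2 and 74.8 CPM in Cisplatin-treated control cells, and at 146.1, 175.4 and 136.2 CPM in untreated and 144.1, 138.0 and 157.8 CPM in Cisplatin-treated depleted cells. Every depleted library was above every control library. Depletion raised IER3 1.59-fold in untreated cells (log2 0.67, SE 0.16, adjusted p = 0.00802) and 1.61-fold in Cisplatin-treated cells (log2 0.69, SE 0.16, adjusted p = 0.00402). Cisplatin gave log2 differences of −0.08 in control cells and −0.06 in depleted cells, neither of which passed (adjusted p = 0.671 and 0.768). In control cells IER3 fell without the Cisplatin-treated library numbered 2 (log2 −0.33, adjusted p = 0.023) and without both (log2 −0.28, adjusted p = 0.0248).

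**Figure D2:**
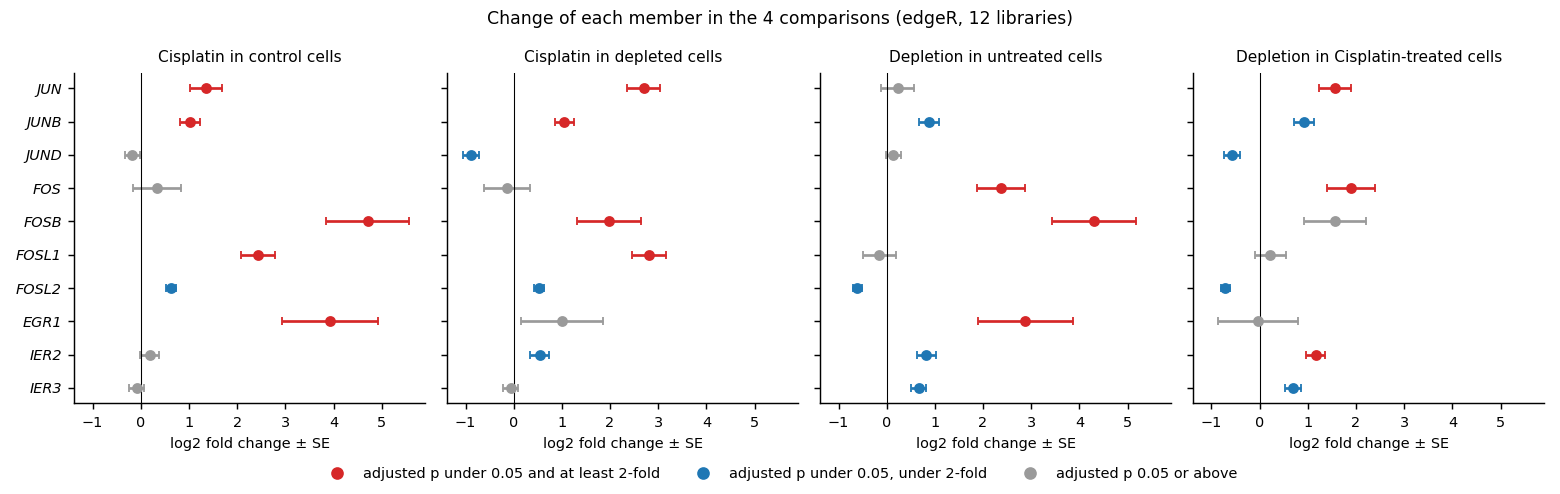
Change of each of the 10 genes in the 4 comparisons. The horizontal axes show the log2 fold change with its standard error, red points an adjusted p under 0.05 with at least 2-fold, blue points an adjusted p under 0.05 with a smaller change and grey points the others. Upon Cisplatin JUN, JUNB, FOSB and FOSL1 are red in both kinds of cells, and upon depletion FOS is red in both states.

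Set against all genes tested, the counts of members read as follows. In control cells Cisplatin raised 5 of the 10 members at least 2-fold (JUN, JUNB, FOSB, FOSL1 and EGR1), against 9.16% of all genes, and 6 passed in either direction, against 55%. The groups of 6 members did not overlap, against 56.1% of all genes. Calls in the lower direction numbered 0, against 10.6% of all genes, with edgeR as with DESeq2, and at an unadjusted p under 0.05 both tools also gave 0. The counts of DESeq2 leave out FOSB and EGR1, for which it gave no adjusted p. The shares of members that passed or did not overlap were thus near those of all genes, while the share called higher was above that of all genes.

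In depleted cells Cisplatin raised 4 of the 10 at least 2-fold (JUN, JUNB, FOSB and FOSL1), against 11.6% of all genes. In this comparison 7 passed, against 60.2%, and 8 had groups that did not overlap, against 74.2%. Without Cisplatin-treated depleted replicate 3, 2 were called (JUN and FOSL1), since JUNB fell short of 2-fold and FOSB of the adjusted p. For the lower direction 0 were called by edgeR or DESeq2, against 11.5%, with JUND passing at less than 2-fold and being the 1 member lower at an unadjusted p under 0.05 in both tools.

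Depletion in untreated cells raised 3 of the 10 at least 2-fold, against 3.7% of all genes. Here 7 passed (6 higher and FOSL2 lower), against 27.4%, and 7 had groups apart, against 43.3%. With DESeq2, which gave no adjusted p for FOSB and EGR1, 1 member (FOS) was called. Calls lower numbered 0 with both tools, against 4.96% of all genes, with FOSL2 the 1 member lower at an unadjusted p under 0.05.

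Depletion in Cisplatin-treated cells raised 3 of the 10 at least 2-fold, against 6.9% of all genes, and 6 when the Cisplatin-treated control library numbered 2 was left out (JUNB, FOSB and EGR1 being added). In all 12 libraries 7 passed (5 higher, JUND and FOSL2 lower), against 42.9%, and 8 had groups apart, against 57.7%. Calls lower again numbered 0 with both tools, against 5.42% of all genes, with JUND and FOSL2 the 2 members lower at an unadjusted p under 0.05.

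**Figure D3:**
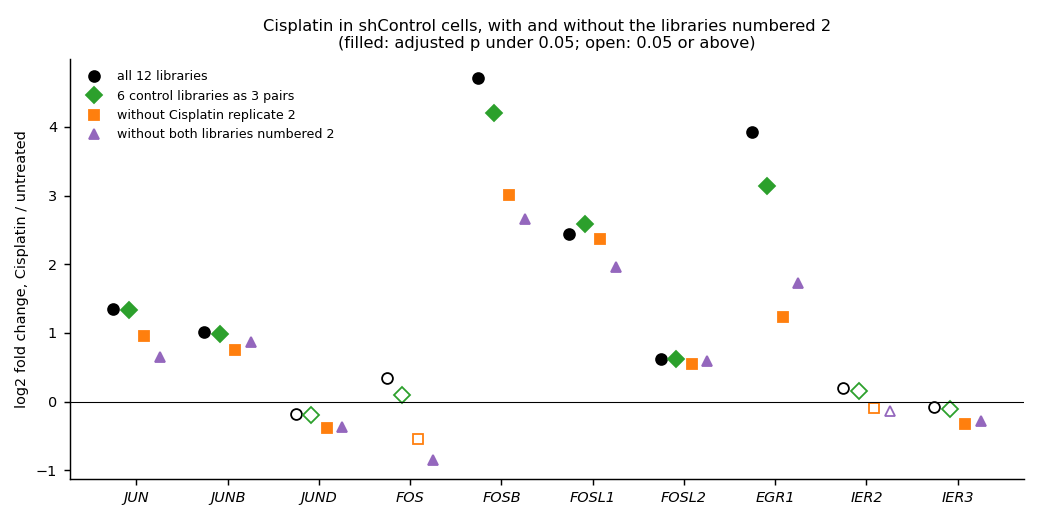
Change upon Cisplatin in control cells with and without the libraries numbered 2. The vertical axis shows the log2 fold change of Cisplatin-treated over untreated cells, symbols the libraries used (all 12, the 6 control libraries as 3 pairs, all but Cisplatin-treated replicate 2, and all but both replicates 2), and filled symbols an adjusted p under 0.05. EGR1 moves from 3.93 to 1.23 and FOSB from 4.71 to 3.01 without Cisplatin-treated replicate 2, FOS changes sign, and FOSL1 and FOSL2 stay higher.

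The control libraries numbered 2 differed from their partners in the members themselves. In the Cisplatin-treated one FOS, FOSB and EGR1 were at least 2-fold above both partners, as 3 of 10 members against 3.28% of all genes tested, and the ratios to the mean of the partners were 3.6 for FOS, 7.83 for FOSB and 17.5 for EGR1. Of 19 other immediate early genes, EGR4, NR4A1, NR4A2, NR4A3 and ARC were at least 2-fold above in the same library. In the untreated one JUN, FOS, FOSB and FOSL1 were at least 2-fold below both partners, as 4 of 10 members against 2.42% of all genes, and EGR1 was 2.2 times higher. In the 6 depleted libraries 0 members were 2-fold above or below both partners, against 0.528 to 0.834% of all genes above and 0.912 to 1.84% below.

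Whether Cisplatin acted differently in depleted and control cells was tested as the ratio of both fold changes. None of the 10 passed with edgeR, against 4.25% of all genes, and so 0 were called higher (0.769% of all genes) or lower (0.508%). DESeq2, which gave no adjusted p for FOSB and EGR1, also called 0. At an unadjusted p under 0.05, edgeR gave JUN as higher and JUND, FOSB and EGR1 as lower. The log2 values were 1.34 for JUN (SE 0.47, adjusted p = 0.125), −0.71 for JUND (SE 0.23, adjusted p = 0.10), −2.73 for FOSB (SE 1.09, adjusted p = 0.169) and −2.92 for EGR1 (SE 1.29, adjusted p = 0.21). JUND passed with DESeq2 (log2 −0.74, adjusted p = 0.0304) and with the replicate number as a block (log2 −0.68, adjusted p = 0.0394). Without the Cisplatin-treated control library numbered 2 the value of JUN was 1.70 (adjusted p = 0.0353), without the untreated one 1.64 (adjusted p = 0.0231), and without both 2.05 (adjusted p = 1.66e-04). Without both, FOSL1 (log2 0.85, adjusted p = 2.73e-04), IER2 (log2 0.67, adjusted p = 0.0247) and JUND (log2 −0.52, adjusted p = 0.0435) passed as well, while FOSB and EGR1 lay at −0.68 and −0.72 and did not pass.

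Levels of different genes were compared as CPM per kilobase of exons. In untreated control cells IER3 was highest at 70.9 ± 4.24 (SD, n = 3), followed by JUND at 23.5 ± 2.33 and FOSL2 at 21.4 ± 1.5, which did not differ beyond their spread. The place of FOSL2 is uncertain in each condition, since the annotation that gives the lengths counted 1.42 to 1.51 times as many reads for it. IER2 (13.5 ± 0.644), FOSL1 (11.2 ± 6.32) and JUNB (9.20 ± 1.5 per kilobase) came next, FOSL1 overlapping both of its neighbours, and JUN (4.57 ± 1.85) and FOS (3.64 ± 1.44) overlapped each other. EGR1 (0.511 ± 0.259) and FOSB (0.0977 ± 0.0535) were lowest. In Cisplatin-treated depleted cells IER3 was again highest at 108 ± 7.48 per kilobase and FOSL1 came second at 70.4 ± 2.85. JUNB (35.1 ± 6.44), IER2 (34.6 ± 7.25) and JUN (34.6 ± 11.3) could not be ordered, and FOSL2 (20.2 ± 1.29), FOS (17.1 ± 5.05) and JUND (14.0 ± 1.13) followed, of which FOS overlapped both others within its spread. EGR1 (7.62 ± 0.692) and FOSB (7.58 ± 1.46) were equal within their spread and lowest.

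The make-up of the JUN and FOS families differed between conditions. JUND held 63.0 ± 1.81% (SD, n = 3) of the JUN family's summed level per kilobase in untreated control cells, 41.3 ± 2.25% after Cisplatin, 53.6 ± 1.77% upon depletion without Cisplatin and 17.3 ± 4.38% with both. JUN held 12.3 ± 5.06%, 22.3 ± 2.60%, 11.2 ± 1.11% and 40.7 ± 4.87% in the same order. JUND was thus the most abundant JUN transcript in 3 conditions and the least abundant in Cisplatin-treated depleted cells. In the FOS family FOSL2 held 60.9 ± 15.9% in untreated control cells, FOSL1 60.4 ± 3.53% after Cisplatin in control and 61.2 ± 2.27% in depleted cells, and FOS 41.3 ± 8.55% in untreated depleted cells. FOSL2 held 31.7 ± 5.69% in untreated depleted cells and lay above FOS in 1 of their 3 libraries, so these 2 were not separated, whereas FOSL1 led with Cisplatin in both kinds of cells. The sum of the FOS family was 36.3 ± 6.88 CPM per kilobase in untreated control cells, 101 ± 15.5 after Cisplatin, 44.9 ± 5.79 upon depletion alone and 115 ± 8.55 with both. These shares depend on the annotation, because the gene counts and the exon lengths come from different ones. Exonic reads counted on the annotation of the lengths were 1.42 to 1.51 times the gene count for FOSL2 and gave it 69.1 ± 13.9%, 41.8 ± 1.79%, 39.5 ± 6.07% and 23.5 ± 2.77% of the FOS family in the 4 conditions. FOS then held 37.3 ± 7.94% in untreated depleted cells and could not be told from FOSL2, whereas FOSL1 still led in both Cisplatin-treated groups, and the shares of the JUN family moved by less than their SD.

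**Figure D4:**
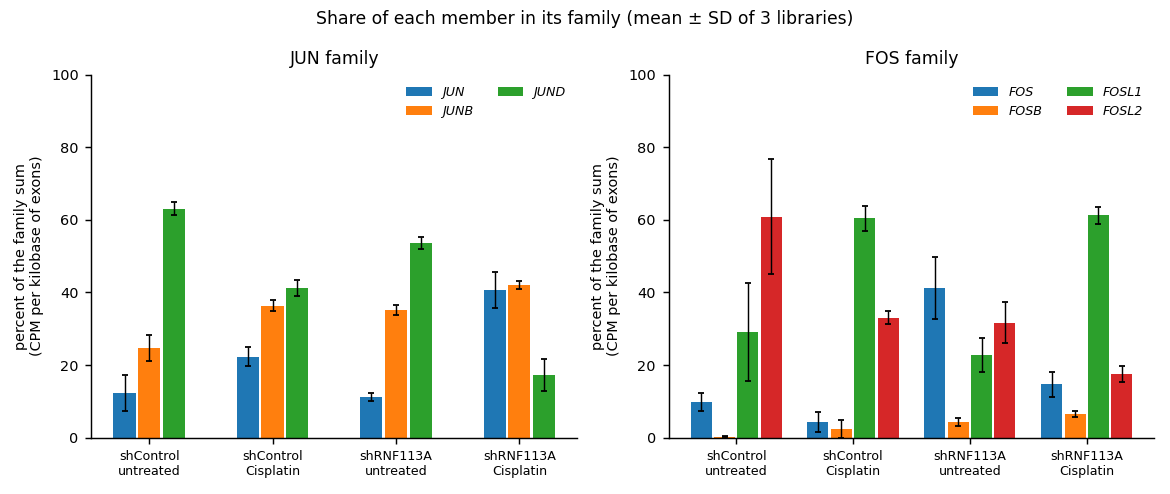
Share of each gene in its family. The vertical axes show the percent of the family's summed CPM per kilobase of exons, bars the mean and whiskers the SD of 3 libraries, from the gene counts. JUND goes from 63.0% in untreated control cells to 17.3% in Cisplatin-treated depleted cells, and FOSL1 lies at 60.4% and 61.2% in the Cisplatin-treated cells.

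RNF113A belongs to the spliceosome, and intronic against exonic reads were therefore compared for the 6 members with bases outside annotated exons. In JUN, JUNB, JUND and IER3 the annotated exons together cover the whole gene. Intronic reads of these genes could therefore not be counted. FOSL2 had 2.27, 2.22 and 2.18 intronic reads per 100 exonic reads in untreated control cells and 3.87, 4.16 and 4.04 upon depletion. With Cisplatin it had 1.88, 1.85 and 3.29 in control cells and 6.30, 5.82 and 6.11 in depleted cells. Every depleted library was above every control library of the same treatment, and the ratio rose upon depletion in untreated cells (log2 0.85, SE 0.20, adjusted p = 0.00797) and in Cisplatin-treated cells (log2 1.42, SE 0.19, adjusted p = 5.16e-06). It rose also upon Cisplatin in depleted cells (log2 0.59, SE 0.20, adjusted p = 0.0112).

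For FOSL1 the ratio was 4.70, 1.93 and 6.86 intronic per 100 exonic reads in Cisplatin-treated control cells and 15.4, 14.7 and 18.1 in Cisplatin-treated depleted cells, a rise upon depletion (log2 1.96, SE 0.33, adjusted p = 3.57e-05). It also rose upon Cisplatin in depleted cells, from 6.53, 9.67 and 2.83 (log2 1.36, SE 0.37, adjusted p = 0.00312). FOS and IER2 had group means of 3.97 to 5.99 and 3.46 to 4.14 intronic reads per 100 exonic reads, and no comparison of either passed. FOSB and EGR1 had 0 intronic reads in the untreated control library numbered 2 and were not tested. In depleted cells their means were 29.8 ± 3.52 and 8.38 ± 1.05 without Cisplatin and 16.7 ± 2.91 and 2.79 ± 0.658 with it, and in Cisplatin-treated control cells 5.84 ± 3.28 and 0.679 ± 0.404 (SD, n = 3).

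The members are to be read against all genes with introns. Of the 4 members tested 2 passed upon depletion in Cisplatin-treated cells, against 81.7% of 11488 genes, 1 upon depletion in untreated cells, against 28.4%, and 2 upon Cisplatin in depleted cells, against 65.4%. Upon Cisplatin in control cells 0 of the 4 passed, against 18.7%, and for the difference between both kinds of cells 0 passed, against 3.53%, with 0 and 1 (FOSL1) at an unadjusted p under 0.05 in edgeR, the 1 tool used for these reads. The median of all genes upon depletion in Cisplatin-treated cells was 0.96 on the log2 scale, so FOSL1 and FOSL2 lay above it and FOS (log2 −0.13) and IER2 (log2 −0.12) below it. Pairs not assigned to any gene made up 13.98 to 22.59% of all, with the highest shares in Cisplatin-treated depleted cells, and their part in these ratios was not tested.

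**Figure D5:**
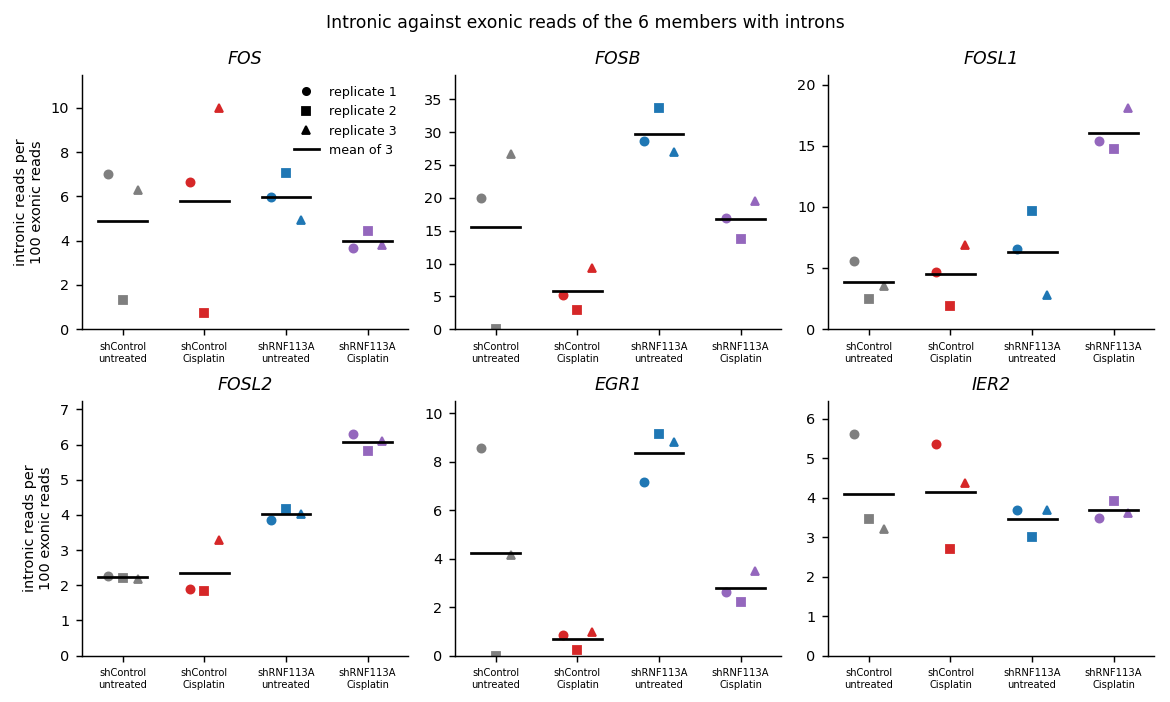
Intronic reads per 100 exonic reads for the 6 members with bases outside annotated exons. The vertical axes start at 0 and differ between panels, points are single libraries (circle, square and triangle for replicates 1, 2 and 3) and lines the mean of 3. FOSL2 separates depleted from control cells in both states, FOSL1 reaches 14.7 to 18.1 in Cisplatin-treated depleted cells alone, and IER2 lies between 2.70 and 5.61 throughout.

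Splicing events of the members were few. Of the tables of skipped exons and alternative 3′ splice sites, 11 events of FOSL1, FOSB and FOSL2 had enough reads, which gave 37 tests over the 4 comparisons. Of these, 0 passed with edgeR (lowest adjusted p = 0.129), with 4 at an unadjusted p under 0.05, and 0 and 4 with the dispersion taken from the trend. The shares of all skipped exons called were 0.156% and 0.328% upon Cisplatin in control and depleted cells, and 0.0419% and 0.11% upon depletion in untreated and Cisplatin-treated cells. For alternative 3′ splice sites they were 0.109%, 0.197%, 0.0878% and 0.322% in the same order. The largest difference was in FOSL1, for an exon on chromosome 11 (hg19, 65661485 to 65661587) whose mean inclusion level was 0.682 in untreated and 0.828 in Cisplatin-treated depleted cells, a difference of 0.145. For the form of this exon that ends at 65661592 the levels were 0.818, 0.797 and 0.722 in untreated depleted cells, where 11, 16 and 14 reads skipped it, and 0.851, 0.896 and 0.905 with Cisplatin, where 50, 36 and 29 reads did.

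Other genes of the pathway were taken from 4 lists. The shares of all genes called are those given for the members, namely 9.16% higher and 10.6% lower upon Cisplatin in control cells, 11.6% and 11.5% with RNF113A depleted, 3.7% and 4.96% upon depletion without Cisplatin, and 6.9% and 5.42% upon depletion with it. Of 12 bZIP partners of JUN and FOS proteins, 10 could be tested. Cisplatin raised 4 of them at least 2-fold in control and 5 in depleted cells and lowered 0 in both, with medians of 0.35 and 0.95 on the log2 scale against −0.01 and 0.06 for all genes. ATF3, a partner of JUN induced by stress, rose from a mean of 8.18 CPM in untreated to 131.8 CPM in Cisplatin-treated control cells (16.1-fold, log2 4.01, SE 0.30, adjusted p = 3.24e-07) and by 3.70 on the log2 scale in depleted cells (adjusted p = 5.4e-07). MAFF, a small MAF protein, rose 3.54-fold in control cells and 5.55-fold in depleted cells, and lay 2.27-fold higher in depleted than in control cells after Cisplatin (log2 1.18, SE 0.21, adjusted p = 0.000967). Upon depletion in untreated cells 1 was called higher (BATF2, 2.16-fold) and 1 lower (BATF3, 2.18-fold), with a median of 0.03, and in Cisplatin-treated cells 2 were called higher (MAFF and BATF2) and 1 lower (JDP2, a repressor of AP-1, 2.16-fold), with a median of 0.14. MAFG alone was called, as higher, for the difference between both kinds of cells, against 0.769% of all genes.

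Of 19 other immediate early genes, all tested, Cisplatin raised 10 at least 2-fold and lowered 1 in control cells, and raised 8 and lowered 0 in depleted cells, with medians of 1.08 and 0.86. ARC, a gene of neuronal activity, went from 0.229 to 0.332 CPM to 13.0 to 31.9 CPM in control cells (68.9-fold, log2 6.11, SE 0.39, adjusted p = 9.43e-08) and rose 38.8-fold in depleted cells. EGR2, a relative of EGR1, rose 58.1-fold in control cells, to 2.63 to 4.28 CPM, and 16.8-fold in depleted cells. Without Cisplatin it was close to absent, at 0.0265 to 0.0764 CPM in control and 0.0529 to 0.105 CPM in depleted cells. The size of both folds is therefore uncertain. IER5L fell 3.24-fold in control cells (log2 −1.70, SE 0.27, adjusted p = 0.000175). Depletion raised 3 and lowered 0 of the 19 in untreated cells, NR4A2 and NR4A3, which encode nuclear receptors, by 4.26-fold and 2.45-fold. In Cisplatin-treated cells depletion raised KLF4 (2.32-fold) and KLF2 (2.16-fold) and lowered EGR2 (2.25-fold) and ARC (2.10-fold), so that 2 were called in each direction. Without the Cisplatin-treated control library numbered 2, neither EGR2 (log2 −0.98) nor ARC (log2 −0.59) reached 2-fold, and of the 19 genes 8 were called higher and 0 lower, with a median of 0.92. Upon Cisplatin in control cells that left 8 called higher and 1 lower, with a median of 0.44. The medians upon depletion were 0.48 and 0.49, against 0.00 and −0.01 for all genes, and for the difference between both kinds of cells 0 of the 19 passed with edgeR, 7 had an unadjusted p under 0.05, and 2 passed with DESeq2.

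Of 19 genes for SRF, its ETS partners, CREB1 and the kinases upstream, all tested, many passed but few changed as much as 2-fold. With Cisplatin 3 passed higher and 6 lower in control cells, while 6 passed higher and 10 lower in depleted cells, against 55% and 60.2% of all genes that passed in either direction. At least 2-fold, it raised 1 and lowered 1 in control cells, and raised 1 and lowered 2 with RNF113A depleted, with medians of −0.13 and −0.21. RPS6KA1, an ERK-activated kinase, rose 3.22-fold in control and 2.21-fold in depleted cells, and its relative RPS6KA3 fell 2.47-fold and 2.33-fold. RPS6KA5 fell 3.02-fold in depleted cells and was 2.96-fold lower in depleted than in control cells after Cisplatin. Upon depletion in untreated cells 0 of the 19 were called, 1 passed higher and 2 lower, 6 had an unadjusted p under 0.05 with edgeR, and 5 passed with DESeq2, with a median of −0.04. In Cisplatin-treated cells the median upon depletion was −0.10. For the difference between both kinds of cells 0 were called, 1 passed (lower), 7 had an unadjusted p under 0.05, and 3 passed with DESeq2.

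Of 15 genes known as targets of AP-1, 14 were found by symbol and 10 could be tested. HBEGF, a ligand of the EGF receptor, rose 8.45-fold upon Cisplatin in control cells and 9.30-fold in depleted cells, where it reached 60.2 to 81.1 CPM. Cisplatin raised 2 at least 2-fold and lowered 0 in both kinds of cells, with medians of 0.15 and 0.19. In control cells, leaving out the Cisplatin-treated library numbered 2 gave 2 called higher and 2 lower of 11 tested, with a median of 0.065. Leaving out both control libraries numbered 2 gave 2 higher and 1 lower of 10, with a median of −0.047. Upon depletion in untreated cells 3 were called higher and 1 lower, with a median of 0.26. Among those higher were PLAUR (3.42-fold) and PLAU (3.21-fold), which encode the receptor of urokinase and urokinase itself. In Cisplatin-treated cells 3 were called higher and 0 lower upon depletion, among them PLAUR (3.93-fold) and HBEGF (2.27-fold), with a median of 0.15. Without the Cisplatin-treated control library numbered 2, when 11 of these genes could be tested, 5 were called higher in that comparison and the median was 1.19. For the difference between both kinds of cells 0 passed with edgeR or DESeq2, and 2 had an unadjusted p under 0.05.

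For each member called in any comparison, the 2 genes closest to it over the 12 libraries were found among the 9778 genes that averaged 10 CPM or more, as the smallest root mean square difference of log2 CPM after centring each gene. JUNB lay closest to SPRY4 (0.155) and HYAL3 (0.182), IER2 to KLF4 (0.19) and NPDC1 (0.207), and FOSL1 to ALOXE3 (0.26) and SESN2 (0.335). JUN lay closest to MAFF (0.385) and SP6 (0.398) and FOS to TGM2 (0.585) and PLAUR (0.599). FOSB and EGR1 were within 0.796 of each other, with COL17A1 at 0.816 from FOSB and RHCG at 0.528 from EGR1. These distances describe 12 libraries in which Cisplatin, depletion and the 2 libraries that stand apart all contribute. The distances were larger for FOS, FOSB and EGR1 than for JUNB and IER2, but so were the SDs of their own log2 levels. These were 1.31, 2.16 and 1.73, against 0.744 and 0.604. Pearson correlations were 0.885 for FOS with TGM2, 0.932 for FOSB with EGR1 and 0.949 for EGR1 with RHCG. For JUNB with SPRY4 and IER2 with KLF4 they were 0.976 and 0.953.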

How the data were processed

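Poly(A) RNA of 12 A549 libraries had been sequenced as stranded read pairs. As deposited by the authors, the count values are raw read pairs per gene, made by removing rRNA, tRNA and mitochondrial reads, trimming, aligning to hg19 with STAR (2.5.2b per the labels) and counting per strand. HTSeq counts over exons and over whole genes of Gencode v19, also deposited by the authors, gave the intronic reads (whole gene less exons), and rMATS tables gave reads of the 2 forms of each splicing event. The p-values, false discovery rates and inclusion levels of the authors in those tables were not used, and columns of other samples numbered 0. Rows that name no gene were left out of library sizes, and held 13.98 to 22.59% of the pairs, unmapped and multimapping ones included.

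The members and lists were chosen with earlier results of these data known. Counts on the own strand were fitted with edgeR 4.0.16 (TMM scaling, its default filter on low counts, quasi-likelihood test) over 4 condition means in R 4.3.3, and adjusted by Benjamini and Hochberg over 15352 genes. CPM values are TMM-scaled. Intronic against exonic reads were fitted as an interaction with the kind of read (11488 genes), and splicing events, with at least 10 reads, as an interaction with the form. Beside the members and RNF113A, the text names, per list and comparison, up to 2 called genes in each direction with the largest change and a mean of at least 1 CPM, and the closest genes by likeness. EGR4, NR4A1 and genes named beside the libraries numbered 2 were chosen after their values were seen. The values of 1 listed gene are not reported here.

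Tested on simulated data, the fit found 72 of 100 genes changed 2-fold and 91 of 100 changed 4-fold for Cisplatin in control cells (15136 genes), and 55 and 78 of 100 for the interaction (15124 genes). For introns it found 187 of 200 genes changed 4-fold (10311 genes). For alternative 3′ splice sites it found 165 of 200 events (4153 events) with the dispersion set to 0, as used in the main test, against 45 with the trend. These counts cover changed events that were found, and not unchanged ones that passed. The alternatives were DESeq2 1.42.0, unstranded counts, scaling by library size, other filters, an additive model, the adjusted p alone, the replicate number as a block, and leaving out each library. Leaving out both control libraries numbered 2, the lists without those libraries, the splicing trend and exonic shares were added after seeing the data.

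Deviations of same-numbered libraries from their condition means correlated over 9779 genes at 0.635, 0.733 and 0.48 across treatment in the control cells, and so pair these. In depleted cells the values were 0.412, −0.069 and 0.297, and between the shRNAs they lay between −0.204 and 0.137, which pairs neither.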

Additional observations from a re-analysis of the deposited data

Results flagged for a closer look

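Among the 10 members no change differed between control and depleted cells beyond the limit with edgeR over all libraries. Some passed under the alternatives given above, among them JUND with DESeq2 and JUN with 1 or both control libraries numbered 2 left out. In the lists around the members 2 genes passed the test of the difference itself (edgeR, adjusted over 15352 genes), against 4.25% of all genes. They were 1 of 10 bZIP partners and 1 of 19 genes for SRF, ETS and kinases, with 0 of 19 other immediate early genes and 0 of 10 AP-1 targets. MAFG, a small MAF protein, lay at 86.7 ± 15.6 CPM in untreated and 77.8 ± 1.71 CPM in Cisplatin-treated control cells, and at 81.4 ± 8.0 and 151 ± 15.8 CPM in depleted cells (SD, n = 3), so that the change upon Cisplatin was higher in depleted cells by 1.04 on the log2 scale (adjusted p = 0.0125). Without the Cisplatin-treated control library numbered 2 this value was 0.99 (adjusted p = 0.0158). RPS6KA1 lay at 33.4 ± 1.93 and 107.6 ± 4.02 CPM in control cells and at 32.6 ± 0.514 and 72.1 ± 3.29 CPM in depleted cells, a difference of −0.54 on the log2 scale between the 2 changes.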

How the results depend on the processing

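Of the 50 values of members in the 5 tests, 26 kept their direction and their side of the threshold under every alternative run. DESeq2 called 3 members upon Cisplatin in control cells and 1 upon depletion in untreated cells, instead of 5 and 3, and gave no adjusted p for FOSB and EGR1, and it turned the interaction of IER3 to −0.007. The adjusted p alone gave 7 members for Cisplatin in depleted cells and 7 for depletion in either state. Scaling by library size moved the median of all genes from −0.01 to 0.09 upon Cisplatin in control cells and from 0.06 to 0.15 in depleted cells, and turned IER3 to 0.019 and 0.034. The additive model has 1 term for Cisplatin and 1 for depletion, so each value covers both states together. Its value for Cisplatin in FOS, 0.091, had the other sign than that in depleted cells alone. Its values for depletion in JUND and FOSL1, −0.214 and 0.043, had the other sign than those in untreated cells alone. For EGR1 its value for depletion, 1.248, had the other sign than that in Cisplatin-treated cells alone. With the replicate block EGR1 upon depletion in Cisplatin-treated cells was 0.694 and the interaction of JUND passed at −0.677, and no other call changed. With the 6 control libraries as 3 pairs, the replicate block gave 4 calls.

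Without both control libraries numbered 2 (added after seeing the data) 3 members were called upon Cisplatin in control cells, 6 upon depletion in Cisplatin-treated cells and 1 for the interaction. FOS and IER2 upon Cisplatin in control cells turned to −0.845 and −0.13, JUN upon depletion in untreated cells to −0.075, EGR1 upon depletion in Cisplatin-treated cells to 2.647 and the interaction of FOS to 0.702. Asking for 10 intronic and exonic reads left 1 member past the limit upon Cisplatin in depleted cells and 1 upon depletion in Cisplatin-treated cells. FOS and FOSL1 were then no longer tested, since they had 3 and 7 intronic reads in the untreated control library numbered 2. Over all genes, the interaction calls were 196, against 292 with DESeq2 and 522 without both libraries.

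Leaving out 1 library at a time gave 3 to 5 members upon Cisplatin in control cells, 2 to 4 in depleted cells, 2 to 3 and 2 to 6 upon depletion in untreated and Cisplatin-treated cells, and 0 to 1 for the interaction. For introns it gave 0 to 2, 2 to 4, 1, 2 to 4 and 0 to 2 in the same order. The highest counts upon Cisplatin, and upon depletion in Cisplatin-treated cells, came without the untreated control library numbered 2. FOSB and EGR1, which had 0 intronic reads in that library alone, were then tested as well, so these counts are not out of the same 4 members. Values upon Cisplatin in control cells ran from −0.547 to 0.719 for FOS, −0.097 to 0.342 for IER2 and −0.325 to 0.055 for IER3, and in depleted cells from −0.375 to 0.067 for FOS and −0.134 to 0.053 for IER3. Upon depletion in untreated cells they ran from −0.075 to 0.45 for JUN, −0.005 to 0.21 for JUND and −0.559 to 0.152 for FOSL1, and in Cisplatin-treated cells from −0.621 to 2.608 for EGR1. Interactions ran from −0.175 to 0.269 for JUNB, −0.894 to 0.37 for FOS and −0.147 to 0.232 for IER3. The cause of these changes was not tested. Depth limits FOSB and EGR1 in untreated control cells, where a library held 10 to 99 read pairs of them.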

Other observations

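The gene count of FOSL2 and its exonic reads differed more than those of the other members. Exonic reads were 1.42 to 1.51 times the gene count for FOSL2, 0.938 to 1.30 times for FOSB, whose lowest counts were 10 to 32 read pairs, and 0.95 to 1.10 times for the other 8 members. The annotations behind the 2 counts differ, and the cause was not tested.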
